A study of Mus musculus with 57 samples.

Results

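Long non-coding RNAs of the mouse heart were followed in an acute and a chronic model of doxorubicin (Doxo) cardiotoxicity with and without nicotinamide mononucleotide (NMN), a precursor of NAD+. The genes were chosen by symbol with their earlier measured values in these hearts in view, and were *Mir22hg*, *Neat1*, *Malat1*, *Gas5*, *Snhg1*, *Snhg12*, *Meg3* and *H19*. All 8 were found among 25416 genes of the acute table and among 54658 genes of the chronic table, and all 8 passed the filter on low counts. RNA-seq of poly(A)-selected RNA was available from 57 hearts of male wild-type C57BL6/J mice, each heart being 1 sample.

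In the acute study, mice bought at 9 weeks of age received a single intraperitoneal dose of Doxo at 20 mg/kg, and hearts were taken on day 5. The groups were Ctrl (n = 14), which received saline, Doxo (n = 13) and Doxo-NMN (n = 13), in which NMN at 180 mg/kg/day was injected intraperitoneally from 5 days before Doxo until day 5. In the chronic study, mice of 14 to 16 weeks received 5 injections of Doxo at 4 mg/kg, and hearts were taken on day 60. There the groups were Ctrl (n = 5), Doxo (n = 6) and Doxo-NMN (n = 6), with NMN at 500 mg/kg/day given in drinking water. Only surviving animals could be sampled. The studies differed in mouse supplier, age, dosing, NMN route and sequencing provider, so a difference between them cannot be told apart from these.

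Long non-coding RNAs act as RNA and are not translated into functional protein. *Malat1* and *Neat1* are abundant nuclear transcripts, of which *Malat1* collects in nuclear speckles, sites rich in splicing factors, while the long form of *Neat1* is the scaffold of paraspeckles. *Gas5*, *Snhg1* and *Snhg12* carry small nucleolar RNAs (snoRNAs), guides of ribosomal RNA modification, in their introns. The spliced *Gas5* transcript is a known target of nonsense-mediated decay, and *Gas5* belongs to the genes whose transcripts start with a tract of pyrimidines. *Mir22hg* is the host transcript of miR-22, a microRNA abundant in heart muscle, and *Meg3* and *H19* are imprinted genes expressed from the maternal allele, high in the fetus and low in most adult tissues.

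Since poly(A)-selected RNA reports the host transcripts and not the mature small RNAs, the products that the hosts encode are shown here as sequence only. In GENCODE M21 (GRCm38), *Mir22hg* spanned chr11:75461539-75466676 on the plus strand, with the miR-22 hairpin inside an exon. Mature microRNAs lying within the hosts were taken from RefSeq (GRCm38.p6) and are given 5′ to 3′ with the seed, bases 2 to 8, in capitals.
miR-22-5p: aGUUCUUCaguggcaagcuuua
miR-22-3p: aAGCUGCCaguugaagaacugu
miR-675-5p: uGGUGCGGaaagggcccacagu
miR-675-3p: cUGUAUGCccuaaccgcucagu
miR-1906: uGCAGCAGccugaggcagggcu
miR-770-5p: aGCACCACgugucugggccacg
miR-770-3p: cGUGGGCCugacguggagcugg
miR-675 lies within *H19* (chr7:142575529-142578143, minus strand) and miR-1906 and miR-770 within *Meg3* (chr12:109541001-109571726, plus strand). No seed was shared between the 7 sequences. The rows of *Mir22*, *Mir675*, *Mir1906-1* and *Mir770* held 0 counts over all hearts of both studies. Each hairpin lies within exons of its host on the same strand, so these rows do not show that hairpin reads were absent. The values below are those of the host genes, and the mature microRNAs were not measured.

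SnoRNAs were counted as annotation entries, and *Snord80* in *Gas5* and *Snora16a* in *Snhg12* have repeated, overlapping entries, so distinct snoRNAs are fewer there. The snoRNA hosts lay at chr1:161034422-161038539 (*Gas5*, 10 snoRNA entries), chr19:8723475-8726443 (*Snhg1*, 8 entries) and chr4:132308623-132311024 (*Snhg12*, 5 entries), all on the plus strand. Because these 3 genes moved together (described below), their start regions are shown from 80 bases before to 40 bases from the RefSeq start, with the longest run of C and T within 20 bases of the start, matches to the TATA box (TATAA) and matches to the cAMP response element (CRE, TGACGTCA) or its half-site (TGACG) in capitals, each read on both strands.
Gas5, chr1:161035086-161035205: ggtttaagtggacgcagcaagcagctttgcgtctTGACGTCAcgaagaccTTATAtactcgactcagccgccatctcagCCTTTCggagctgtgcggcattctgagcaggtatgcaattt
Snhg1, chr19:8723407-8723526: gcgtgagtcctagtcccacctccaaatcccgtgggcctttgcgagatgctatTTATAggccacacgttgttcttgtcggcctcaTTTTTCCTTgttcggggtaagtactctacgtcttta
Snhg12, chr4:132308598-132308717: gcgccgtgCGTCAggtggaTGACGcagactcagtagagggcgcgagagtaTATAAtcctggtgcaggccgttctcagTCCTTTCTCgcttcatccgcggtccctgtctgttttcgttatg
In *Gas5* a run of 6 pyrimidines spanned the start, and in *Snhg1* and *Snhg12* the run was 9 bases long, beginning 5 bases into the *Snhg1* transcript. A run at least as long was present in 37.5% and 10.7% of 32851 mouse promoters, respectively. All 3 windows held a TATA box match 30 or 28 bases before the start. A match at any position was held by 24.9% of all promoters of 300 bases, and the share at this position was not counted. The whole CRE was found in *Gas5*, and also in *Meg3*, against 1.79% of all promoters, and each half-site match in *Gas5* was part of that CRE. The half-site, found in 20.8% of all promoters, was present at 2 places in the *Snhg12* window. It was also matched in *Malat1*, *Mir22hg* and *Meg3*, so that 5 of the 8 promoters of these RNAs held it. The TATA box was also matched in *Meg3*, and 4 of the 8 promoters held it. *Gas5* has another RefSeq start upstream without these features. RefSeq windows were matched for 6 of the 8 genes. These matches describe letters and not bound sites.

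Reads from these genes could be shared with annotated neighbours. *Mir22hg* shares 206 exonic bases with *Tlcd2* on the same strand, and *Malat1* and *Meg3* are overlapped on the opposite strand by *Gm37376* (453 shared exonic bases) and *Gm26906* (1228 shared exonic bases). *Zbtb37* overlaps *Gas5* on the opposite strand without shared exonic bases. Whether counting used strand is not given in the sources used here, so reads of opposite-strand partners cannot be told apart from those of the named genes. In the chronic table *Gm37376* and *Gm26906* held 0 counts over all hearts. All bases of *Gm37376* lie within the *Malat1* exon, so its row does not show that its reads were absent. *Slc3a2*, which encodes an amino acid transporter subunit, lies 106 bases from *Snhg1*.

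Total counts were 32409622 to 52102850 per heart in the acute study and 17769886 to 23862287 in the chronic study. The library labelled acute Doxo replicate 6 lay within the range of the Ctrl hearts for 88.6% of the 14240 tested genes, against 28.9% to 65.5% in the other 12 Doxo hearts, and it was within the Ctrl range for 7 of the 8 RNAs. Without it, log2 fold changes for Doxo vs. Ctrl were 3.04 for *Mir22hg*, 1.75 for *Neat1* and 0.69 for *Malat1*. For *Gas5*, *Snhg1* and *Snhg12* they were 1.07, 1.24 and 1.36, each above the value with all hearts. Below, values without it are given where the call of an RNA changed. In the acute study 17 hearts held at least 100 CPM (counts of a gene scaled to the normalised library size) of the atrial light chain gene *Myl4* and 23 held less, and these were spread unevenly, with 8 of 14 Ctrl, 5 of 13 Doxo and 4 of 13 Doxo-NMN hearts on the high side. The 6 cardiomyocyte markers summed to at least 24669 CPM in every heart of the acute study. Red cell markers (5 genes) summed to 437 to 4311 CPM in Ctrl, 1.19 to 338 CPM in Doxo and 0.209 to 2.81 CPM in Doxo-NMN hearts, and neutrophil markers (4 genes) to 1.59 to 4.99, 2.69 to 258 and 4.66 to 28.6 CPM. The part of these cells in the values below was not tested. In bulk tissue, fewer cells of a type and less RNA per cell cannot be told apart.

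Per kilobase of annotated exon, *Malat1* was the most abundant of the 8 RNAs in acute Ctrl hearts, at 275 ± 15.7 CPM per kb (SD, n = 14), followed by *Neat1* at 40.8 ± 5.51 CPM per kb and *H19* at 20.9 ± 13.97 CPM per kb. *Mir22hg* at 6.85 ± 1.02 and *Gas5* at 6.62 ± 0.605 CPM per kb did not differ beyond their spread, nor did *Snhg1* at 1.77 ± 0.227 and *Snhg12* at 1.60 ± 0.223 CPM per kb. *Meg3* was lowest, at 0.745 ± 0.184 CPM per kb. The *H19* mean joins 8 Ctrl hearts of high *Myl4*, at 55.0 to 109 CPM of *H19*, and 6 of low *Myl4*, at 11.1 to 19.2 CPM. Its place in this order therefore depends on the mix of hearts. The *Neat1* length is that of the long form, so a share of short transcripts would make its level per kb too low. In acute Doxo hearts the order changed, with *Mir22hg* at 52.8 ± 24.9 CPM per kb now above *H19* at 16.4 ± 11.5 CPM per kb. In chronic Ctrl hearts *Malat1* (140 ± 33.4 CPM per kb, n = 5) and *Neat1* (71.8 ± 24.6 CPM per kb) again led, and *H19* stood at 4.08 ± 0.599 CPM per kb. *Mir22hg* and *Gas5* were again close there, at 6.75 ± 1.24 and 6.35 ± 1.88 CPM per kb.

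**Figure D1:**
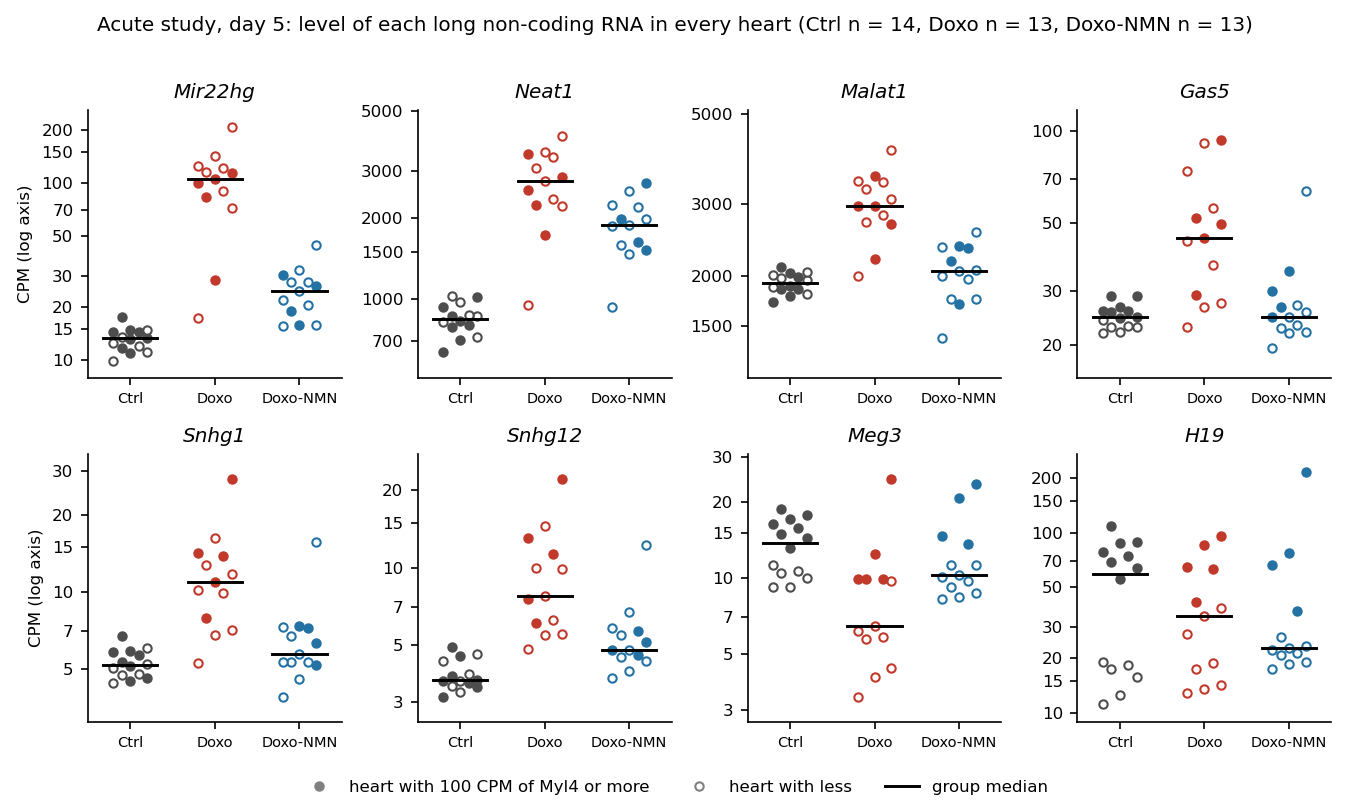
Level of each long non-coding RNA in every heart of the acute study, in CPM on a log axis, for Ctrl, Doxo and Doxo-NMN. Points are hearts, filled where *Myl4* reached 100 CPM, and bars are group medians. In *Mir22hg*, *Neat1*, *Malat1*, *Snhg1* and *Snhg12*, 12 of 13 Doxo hearts lie above all Ctrl hearts, as in 8.1% of tested genes. In *H19* filled and open points separate within each group.

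In the acute study, differences are given as log2 fold changes with their SE from a fit across all tested genes, in which a gene was called when its adjusted p was under 0.05 and its change at least 1.5-fold. Since the RNAs were chosen with these values known, the values describe them and no p is given. Doxo vs. Ctrl gave a call for 7 of the 8 RNAs, 6 higher and 1 lower, against a background of 30.1% of all tested genes (14.7% higher and 15.4% lower). Doxo-NMN vs. Doxo gave 4 calls, all lower, where 17.1% of genes were called (8.17% higher and 8.88% lower). Doxo-NMN vs. Ctrl gave 2 calls, both higher, where 7.11% were called (3.31% higher and 3.79% lower). Counts of called genes in the gene lists below are to be read beside these shares. With no limit on fold, 7, 6 and 3 of the RNAs passed in these comparisons, against 68.1%, 53% and 26% of all genes, and at an unadjusted p under 0.05 the counts were 7, 7 and 3, against 70.6%, 58.3% and 37.8%. DESeq2 called 7, 4 and 2 of the RNAs, against 28.3%, 15.7% and 7.35% of the genes to which it gave an adjusted p.

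*Mir22hg* differed most. It measured 9.96 to 17.5 CPM in Ctrl hearts with a median of 13.3, and 17.3 to 206 CPM in Doxo hearts with a median of 105. The lowest Doxo heart was replicate 6, and the next lowest, replicate 7, held 28.3 CPM, still above all Ctrl hearts. Doxo-NMN hearts held 15.7 to 44.5 CPM with a median of 24.5, all below the Doxo median and 10 of 13 above the highest Ctrl heart. This gave a log2 fold change of 2.95 ± 0.22 (SE) for Doxo vs. Ctrl, −2.04 ± 0.22 for Doxo-NMN vs. Doxo and 0.91 ± 0.21 for Doxo-NMN vs. Ctrl. Within hearts of at least 100 CPM of *Myl4* the last comparison gave 0.73 ± 0.25, which was over 1.5-fold but did not pass the adjusted p limit. *Tlcd2*, which shares exonic bases with it, differed by 0.55 ± 0.27 in Doxo vs. Ctrl and did not pass the test, and it was lower in Doxo-NMN vs. Doxo by a log2 fold change of −0.65 ± 0.27.

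The nuclear RNAs *Neat1* and *Malat1* were both higher with Doxo but stood differently with NMN. *Neat1* measured 639 to 1025 CPM in Ctrl hearts (median 847), 954 to 4024 CPM in Doxo hearts (median 2747) and 939 to 2699 CPM in Doxo-NMN hearts (median 1890). In each treated group 12 of 13 hearts were above the highest Ctrl heart, which held for 8.1% of tested genes in Doxo and for 2.09% in Doxo-NMN. Its log2 fold change was 1.67 ± 0.14 for Doxo vs. Ctrl and 1.16 ± 0.14 for Doxo-NMN vs. Ctrl, and the change of −0.51 ± 0.14 for Doxo-NMN vs. Doxo was under 1.5-fold and was called at −0.59 without Doxo replicate 6.

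*Malat1* had the narrowest Ctrl spread, 1726 to 2095 CPM (median 1919). Doxo hearts held 1995 to 4080 CPM (median 2970) and Doxo-NMN hearts 1402 to 2561 CPM (median 2052). Of the Doxo-NMN hearts, 5 were above the highest, 2 below the lowest and 6 within the range of the Ctrl hearts. For Doxo vs. Ctrl, its log2 fold change was 0.65 ± 0.08. Doxo-NMN vs. Doxo gave −0.56 ± 0.08, which passed the 1.5-fold limit without Doxo replicate 6 (−0.60), Doxo replicate 7 or Doxo-NMN replicate 10 (−0.59 each), and the change was 0.09 ± 0.08 for Doxo-NMN vs. Ctrl. Genes of the structures that these RNAs build or enter moved less. With Doxo, 14.7% of all tested genes were called higher and 15.4% lower. Of 13 paraspeckle protein genes tested, 2 were higher with Doxo, among them the RNA-binding protein gene *Ewsr1* (log2 fold change 0.68), and none was lower, with a median over the list of 0.32 against 0.00 over all tested genes. Of 12 genes for nuclear speckle and splicing proteins, 5 were higher, led by the splicing factor *Srsf5* (1.58) and the splicing coactivator *Srrm1* (0.69), and none was lower (median 0.43). In Doxo-NMN vs. Doxo, no paraspeckle gene was called (8 at an unadjusted p under 0.05, 0 by DESeq2) and *Srsf5* was the one speckle gene called (−1.05).

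The snoRNA hosts *Gas5*, *Snhg1* and *Snhg12* were higher with Doxo and closer to Ctrl with NMN. *Gas5* held 21.8 to 28.9 CPM in Ctrl hearts (median 24.6), 22.9 to 93.8 CPM in Doxo hearts (median 44.8) and 19.5 to 64.0 CPM in Doxo-NMN hearts (median 24.7). The Doxo hearts were widely spread, with 10 of 13 above the highest Ctrl heart and replicates 12, 4 and 5 highest. In Doxo-NMN, 8 of 13 hearts were within the Ctrl range, and replicate 10 alone held 64.0 CPM. *Snhg1* held 4.40 to 6.69 CPM in Ctrl (median 5.15), 5.28 to 27.8 in Doxo (median 10.9) and 3.86 to 15.7 in Doxo-NMN hearts (median 5.69). *Snhg12* held 3.14 to 4.89, 4.83 to 22.1 and 3.73 to 12.3 CPM, with medians of 3.64, 7.79 and 4.80. For both, Doxo replicate 12 and Doxo-NMN replicate 10 were the highest hearts of their groups, as in *Gas5*. Of the 13 Doxo-NMN hearts, 5 were above the highest Ctrl heart in *Snhg1* and 6 in *Snhg12*.

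Log2 fold changes for Doxo vs. Ctrl were 1.003 ± 0.18 for *Gas5*, 1.18 ± 0.18 for *Snhg1* and 1.31 ± 0.18 for *Snhg12*, and those for Doxo-NMN vs. Doxo were −0.82 ± 0.18, −0.85 ± 0.19 and −0.79 ± 0.18. For Doxo-NMN vs. Ctrl they were 0.18 ± 0.18, 0.33 ± 0.18 and 0.52 ± 0.18. Only that of *Snhg12* passed the adjusted p limit, at under 1.5-fold. Within hearts of under 100 CPM of *Myl4*, Doxo-NMN vs. Doxo gave −0.58 ± 0.23 for *Snhg1* and −0.48 ± 0.23 for *Snhg12*. Neither was called, and hearts at or above that level gave −1.21 ± 0.25 and −1.26 ± 0.27. The difference between these classes was not tested. After the group means were subtracted, *Snhg1* and *Snhg12* followed each other over the 40 acute hearts with r = 0.91 (Pearson, log2 CPM), *Gas5* and *Snhg1* with r = 0.90 and *Gas5* and *Snhg12* with r = 0.85. Within Ctrl hearts alone r was lower, at 0.31 for *Snhg1* and *Snhg12* against 0.96 in Doxo and 0.92 in Doxo-NMN hearts, and at 0.57 for *Gas5* and *Snhg1* against 0.92 and 0.90. The hearts share depth and tissue composition, so these r describe the libraries and carry no p.

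**Figure D2:**
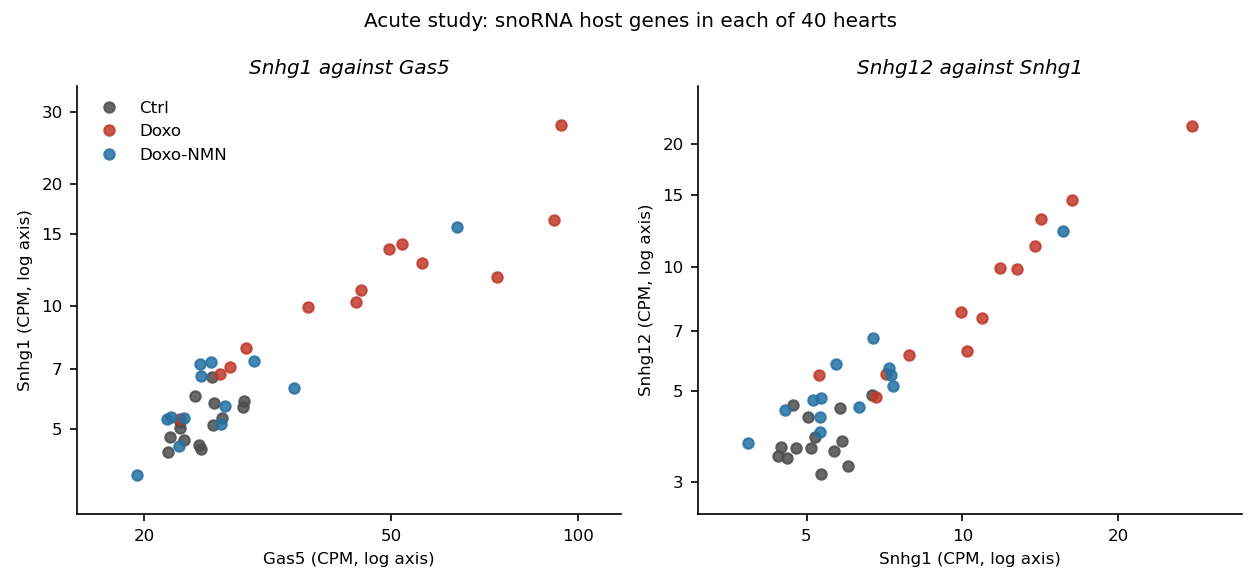
*Snhg1* against *Gas5* and *Snhg12* against *Snhg1* in each of the 40 acute hearts, in CPM on log axes, coloured by group. Points of the 3 groups fall along the same band, with 1 Doxo heart highest in *Gas5*, *Snhg1* and *Snhg12* and 1 Doxo-NMN heart among the upper Doxo hearts.

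The genes most like each of them were largely other snoRNA hosts. The closest to *Gas5* were the snoRNA hosts *Zfas1* (r = 0.92) and *Snhg5* (r = 0.92) and the ubiquitin ligase scaffold *Cul4b* (r = 0.91). Those closest to *Snhg1* were *Snhg12*, *Gas5* and the snoRNA host *Epb41l4aos* (r = 0.89), and those closest to *Snhg12* were *Snhg1*, *Zfas1* (r = 0.90) and *Epb41l4aos* (r = 0.88). In Ctrl hearts alone these likenesses were weaker, from r = 0.24 for *Snhg12* and *Epb41l4aos* to r = 0.64 for *Gas5* and *Snhg5*. Of 13 other snoRNA host genes tested, 8 were higher with Doxo and none was lower, with a median log2 fold change of 1.08 and the largest in *Snhg11* (1.83) and *Snhg14* (1.67). In Doxo-NMN vs. Doxo, 7 of these 13 were lower and none higher (median −0.72), and in Doxo-NMN vs. Ctrl none was called, with 6 at an unadjusted p under 0.05 and 0 called by DESeq2.

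Among 8 snoRNP core protein genes, 2 were higher with Doxo, *Nhp2* (1.004), of the box H/ACA particles that guide pseudouridylation, and *Nop56* (0.81), of the box C/D particles that guide methylation. Of 16 nonsense-mediated decay factors, 3 were higher, led by *Upf3b* (0.68) and *Smg6* (0.63), and none was lower. *Upf1*, the central helicase, gave −0.38 ± 0.06 and was under 1.5-fold. Beside both lists, 14.7% of all tested genes were called higher and 15.4% lower. In Doxo-NMN vs. Doxo *Nhp2* was lower (−0.70), and no decay factor was called (11 at an unadjusted p under 0.05, 0 by DESeq2). *Slc3a2*, beside *Snhg1*, was higher with Doxo (1.41 ± 0.14) and lower in Doxo-NMN vs. Doxo (−0.88 ± 0.14). It was the one called gene of 9 tested neighbours in Doxo vs. Ctrl. *Trnau1ap*, which lies 739 bases from *Snhg12*, gave 0.22 ± 0.07, and *Zbtb37*, which overlaps *Gas5*, gave −0.22 ± 0.08.

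*Meg3* was the one RNA of the 8 that was called lower with Doxo. It held 9.20 to 18.7 CPM in Ctrl hearts (median 13.7), 3.36 to 24.7 CPM in Doxo hearts (median 6.43) and 8.24 to 23.6 CPM in Doxo-NMN hearts (median 10.3). Doxo hearts reached both below and above the Ctrl hearts, with 7 below the lowest and 1, replicate 1, above the highest. All Doxo-NMN hearts were above the Doxo median. The log2 fold change was −0.64 ± 0.22 for Doxo vs. Ctrl, 0.50 ± 0.22 for Doxo-NMN vs. Doxo and −0.13 ± 0.22 for Doxo-NMN vs. Ctrl. The call in Doxo vs. Ctrl was lost without Doxo replicate 2 (−0.58) or replicate 4 (−0.57), and without replicate 1 Doxo-NMN vs. Doxo was called at 0.74. With the atrial class, described next, as a term, Doxo vs. Ctrl was no longer called (−0.55) and Doxo-NMN vs. Doxo was called (0.62).

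*H19* was not called in any acute comparison, yet it varied most among hearts. It held 11.1 to 109 CPM in Ctrl hearts (median 59.3), 12.9 to 95.7 CPM in Doxo hearts (median 34.2) and 17.5 to 218 CPM in Doxo-NMN hearts (median 22.8), so that the 3 groups overlapped almost entirely. The log2 fold change was −0.34 ± 0.42 for Doxo vs. Ctrl, with an interval of −1.17 to 0.48, and 0.17 ± 0.43 for Doxo-NMN vs. Doxo, which became −0.38 without Doxo-NMN replicate 2.

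Both imprinted RNAs differed with the atrial marker class of the hearts. The class limit was set with these data in view, so its values are a description with no p. In a fit with group and class as additive terms, *H19* was higher in hearts of at least 100 CPM of *Myl4* by a log2 fold change of 2.07 ± 0.16 and *Meg3* by 0.92 ± 0.11. In this contrast 7.04% of tested genes were called, 6.68% higher, and none of the other 6 RNAs was called, with log2 fold changes of −0.12 to 0.23. *H19* held 36.9 to 218 CPM in the 17 high hearts (median 73.8) and 11.1 to 37.9 CPM in the 23 low hearts (median 18.8), so that the classes touched only at their edges. The class follows *Myl4*, and the 5 atrial markers summed to 44.4 to 5555 CPM in Ctrl, 32.9 to 1838 CPM in Doxo and 27.3 to 3875 CPM in Doxo-NMN hearts. No atrial marker had a group median of 0. How much of the *H19* and *Meg3* values came from atrial tissue was not tested.

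**Figure D3:**
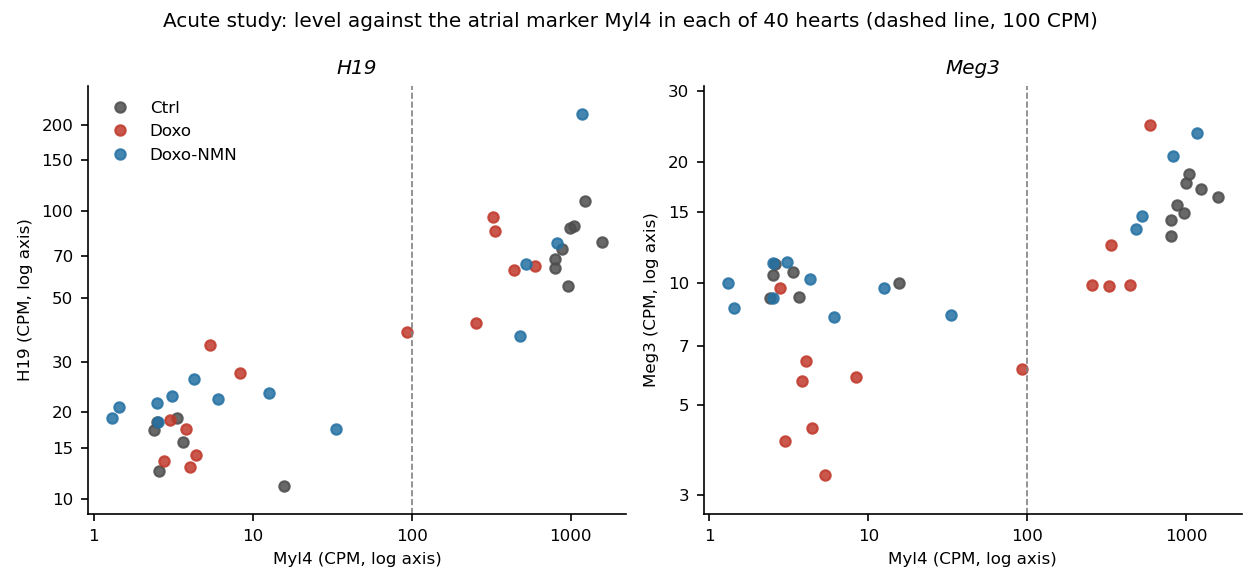
*H19* (left) and *Meg3* (right) against *Myl4* in each of the 40 acute hearts, in CPM on log axes, with a dashed line at 100 CPM of *Myl4*. To the right of the line *H19* lies between 36.9 and 218 CPM in all groups, and to the left the lowest *Meg3* values, down to 3.36 CPM, are Doxo hearts.

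Within a class, *Meg3* and *H19* parted. In low hearts *Meg3* held 9.20 to 11.2 CPM in Ctrl (n = 6), 3.36 to 9.72 CPM in Doxo (n = 8) and 8.24 to 11.3 CPM in Doxo-NMN (n = 9). Apart from replicate 6 at 9.72 CPM, every low Doxo heart lay below all low Ctrl and low Doxo-NMN hearts. The log2 fold change in low hearts was −0.84 ± 0.16 for Doxo vs. Ctrl and 0.76 ± 0.15 for Doxo-NMN vs. Doxo, and −0.24 ± 0.20 and 0.42 ± 0.23 in high hearts. In high hearts *Meg3* held 13.1 to 18.7 CPM in Ctrl (n = 8) and 9.88 to 24.7 CPM in Doxo (n = 5), where 4 of 5 hearts were below all Ctrl hearts and replicate 1 was above. *H19* differed by 0.47 ± 0.21 in low and −0.15 ± 0.30 in high hearts in Doxo vs. Ctrl, neither of which was called.

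Over the 40 acute hearts *Meg3* was most like *Col14a1* (r = 0.93), *Colec12* and *Olfml2a* (r = 0.92 each), of which *Col14a1* encodes a fibril-associated collagen made by fibroblasts. *H19* was most like *Lmntd1*, *Sbk3* and *Plvap* (r = 0.93 each), and *Plvap* encodes a protein of the diaphragms of fenestrated endothelium. *Meg3* and *H19* followed each other with r = 0.74. Group means were subtracted but the *Myl4* class was not, so differences between the classes enter these r. The part of endothelial RNA in the *H19* values was not tested. The 6 fibroblast markers summed to 581 to 1127 CPM in Ctrl, 503 to 1351 CPM in Doxo and 465 to 1139 CPM in Doxo-NMN hearts, but within the list the collagen gene *Col1a1* had medians of 111 CPM in Ctrl and 10.97 CPM in Doxo hearts, and the proteoglycan gene *Dcn* had medians of 532 and 640 CPM. The part of fibroblast RNA in the *Meg3* values was not tested.

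Other RNAs of the imprinted domain that holds *Meg3* were lower in the same direction. *Rian*, a snoRNA cluster host, gave −1.68 ± 0.28 for Doxo vs. Ctrl and 0.91 ± 0.28 for Doxo-NMN vs. Doxo, and *Mirg*, a microRNA cluster host, gave −2.04 ± 0.37 and 1.27 ± 0.38, all of which were called. *Rtl1*, the coding gene beside *Meg3*, gave −0.90 ± 0.46 for Doxo vs. Ctrl and did not pass the test, and neither did *Igf2* (−0.91 ± 0.42), the partner of *H19* in its domain. Of 17 other imprinted genes tested, 3 were higher with Doxo, led by *Peg10* (1.70) and *Peg3* (0.96). In the same list 4 were lower, led by *Zim1* (−1.88) and *Ndn* (−1.67), with a median of −0.25. Over all tested genes, 14.7% were higher and 15.4% lower. In Doxo-NMN vs. Doxo, 3 were higher and 2 lower, with *Ndn* at 1.14 and *Peg10* at −1.60.

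Of 21 other named long non-coding RNAs tested, 7 were higher and 3 lower with Doxo (median 0.39), against 14.7% and 15.4% of all tested genes. The largest increases were in *Lncpint* (2.24 ± 0.21), a p53-induced RNA, and *Carmn* (2.02 ± 0.28), a cardiac mesoderm and smooth muscle RNA, and the third decrease beside *Mirg* and *Rian* was in *Mhrt* (−1.17 ± 0.33), an RNA transcribed antisense to the heavy chain gene *Myh7*. In Doxo-NMN vs. Doxo, 3 of the 21 were lower and 3 higher, with *Lncpint* at −1.21 ± 0.20 and *Carmn* at −1.55 ± 0.28. In Doxo-NMN vs. Ctrl, 3 were higher, among them *Lncpint* (1.03), and *Rian* was lower (−0.77). *Mest* (−0.84) and *Zim1* (−0.97) were the imprinted genes called in that comparison. The lists of nuclear, decay, snoRNP, microRNA, miR-22 target and neighbouring genes held no call there, with 2 to 7 genes a list at an unadjusted p under 0.05 and 0 called by DESeq2.

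For *Mir22hg*, the genes most alike were the splicing factor *Srsf5* (r = 0.90), *Ccdc192* (r = 0.88) and the chromatin factor *Morf4l1* (r = 0.87). *Neat1* was most like *Cdc123* (r = 0.82), *Snrnp70* (r = 0.80), a U1 snRNP protein, and *Tmed2* (r = 0.78). *Malat1* was most like *Hmgb1* (r = 0.81), *Mkln1* (r = 0.81) and the nucleolar protein gene *Ncl* (r = 0.80). Some of these r were near 0 within Ctrl hearts alone, at −0.01 for *Neat1* and *Cdc123*, 0.03 for *Neat1* and *Tmed2* and 0.02 for *Malat1* and *Mkln1*. For *Mir22hg*, r within Ctrl was 0.68 with *Srsf5*, 0.17 with *Ccdc192* and 0.13 with *Morf4l1*. Of 5 reported targets of miR-22, whose seed is shown above, 2 were higher with Doxo, the deacetylase *Sirt1* (0.97 ± 0.13) and the caveolin *Cav3* (0.73 ± 0.11), and none was lower. *Sirt1* was lower in Doxo-NMN vs. Doxo (−0.78 ± 0.13). Of 13 genes for microRNA processing and silencing, *Tnrc6a* was higher (0.66) and *Ago4* was lower (−1.01) with Doxo, and no gene was called in Doxo-NMN vs. Doxo, where 6 had an unadjusted p under 0.05 and DESeq2 called 0.

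**Figure D4:**
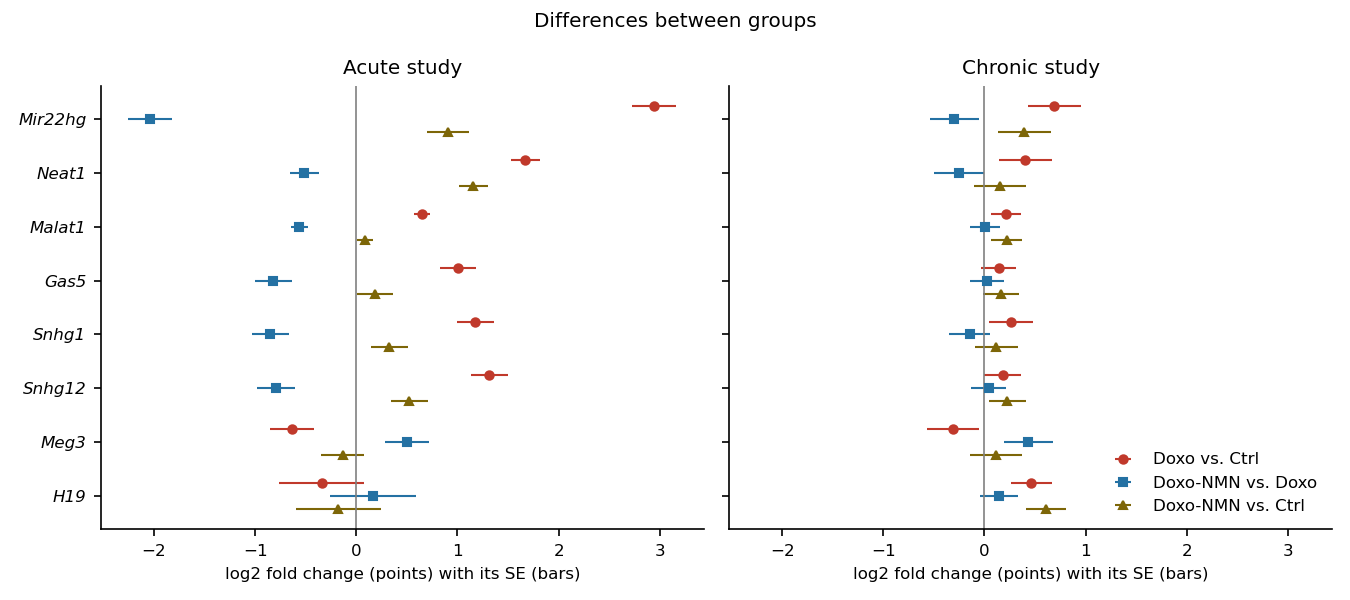
Log2 fold change (points) with SE (bars) of each RNA for Doxo vs. Ctrl and for Doxo-NMN against each of the other groups, in the acute (left) and chronic (right) study. Acute values of Doxo vs. Ctrl reach 2.95 in *Mir22hg*, and the largest chronic value of Doxo vs. Ctrl is 0.69.

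In the chronic study, with hearts taken on day 60, no RNA of the 8 passed the test in any comparison (edgeR quasi-likelihood test, adjusted p under 0.05). The background was equally sparse, with 9 of 14960 tested genes (0.0602%, of which 0.0535% were higher and 0.00668% lower) for Doxo vs. Ctrl, 6 genes (0.0401%) for Doxo-NMN vs. Ctrl and 0 genes (0%) between the Doxo groups. At an unadjusted p under 0.05, *Mir22hg* and *H19* passed for Doxo vs. Ctrl, where 7.85% of genes did, and *H19* passed for Doxo-NMN vs. Ctrl, where 4.73% did. Between the Doxo groups 0 of the 8 RNAs and 2.95% of genes passed. DESeq2 called 0 of the 8 RNAs in each comparison, with 0.105%, 0.0243% and 0% of genes called, in the same order. None of the other gene lists held a call by edgeR in any chronic comparison, with 0 to 3 genes a list at an unadjusted p under 0.05, and DESeq2 called 1 gene, a long non-coding RNA, in Doxo vs. Ctrl.

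*Mir22hg* held 14.7, 11.2, 13.2, 15.8 and 10.1 CPM in the chronic Ctrl hearts. In Doxo it held 15.5, 40.3, 14.5, 22.2, 18.7 and 15.02 CPM, and in Doxo-NMN 24.4, 9.71, 13.5, 20.1, 13.2 and 21.7 CPM. In each treated group, 3 of 6 hearts were above the highest Ctrl heart. The log2 fold change for Doxo vs. Ctrl was 0.69 ± 0.26 (adjusted p = 0.567), with an interval of 0.18 to 1.21, and without Doxo replicate 2 it was 0.40 ± 0.21.

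*H19* held 9.09 to 12.6 CPM in chronic Ctrl hearts (median 9.49), 7.77 to 19.7 CPM in Doxo hearts (median 14.5) and 11.4 to 19.9 CPM in Doxo-NMN hearts (median 14.2), with 4 of 6 and 5 of 6 treated hearts above the highest Ctrl heart. The log2 fold change was 0.47 ± 0.20 for Doxo vs. Ctrl (adjusted p = 0.603) and 0.61 ± 0.20 for Doxo-NMN vs. Ctrl (adjusted p = 0.876). The atrial markers summed to 69.1 to 205 CPM in Ctrl, 124 to 536 CPM in Doxo and 192 to 292 CPM in Doxo-NMN hearts, with *Bmp10* at a median of 0 in Ctrl. Of these markers *Nppa*, the atrial natriuretic peptide gene, held most of the sum, with medians of 81.4, 306 and 212 CPM, and *Myl4* had medians of 2.23, 1.92 and 1.93 CPM. Their part in the *H19* values was not tested. No chronic heart reached 100 CPM of *Myl4*.

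The other 6 RNAs also overlapped between the chronic groups. In *Snhg12*, 4 of 6 Doxo-NMN hearts were above the highest Ctrl heart. *Neat1* held 2377, 1083, 1301, 1430 and 1269 CPM in Ctrl hearts and 1443, 3860, 1350, 1829, 1618 and 1732 CPM in Doxo hearts. Only Doxo replicate 2 exceeded the highest Ctrl heart, which was replicate 1. The difference was 0.40 ± 0.26 (adjusted p = 0.714), and 0.10 ± 0.20 without Doxo replicate 2. *Malat1*, *Gas5*, *Snhg1* and *Snhg12* gave log2 fold changes of 0.21 ± 0.15, 0.14 ± 0.17, 0.26 ± 0.22 and 0.18 ± 0.18 for Doxo vs. Ctrl, and the adjusted p of these was 0.738 to 0.863. The interval was −0.20 to 0.48 for *Gas5* and −0.18 to 0.54 for *Snhg12*. *Meg3* gave −0.32 ± 0.26 (adjusted p = 0.773).

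In Doxo-NMN vs. Doxo the chronic log2 fold changes of the 8 RNAs ran from −0.30 ± 0.24 in *Mir22hg* to 0.43 ± 0.24 in *Meg3*, and the adjusted p of each was 0.999. The *Meg3* value was 0.13 without Doxo-NMN replicate 4, the chronic heart with the most *Myl4* (83.8 CPM). Doxo replicate 2 was the highest Doxo heart in *Mir22hg*, *Neat1*, *Gas5*, *Snhg1* and *Snhg12* and the lowest in *Meg3*, and it was within the Ctrl range for 42.97% of tested genes against 69.1% to 80.6% in the other Doxo hearts. Without it, *Mir22hg* gave −0.01 ± 0.20 in Doxo-NMN vs. Doxo.

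**Figure D5:**
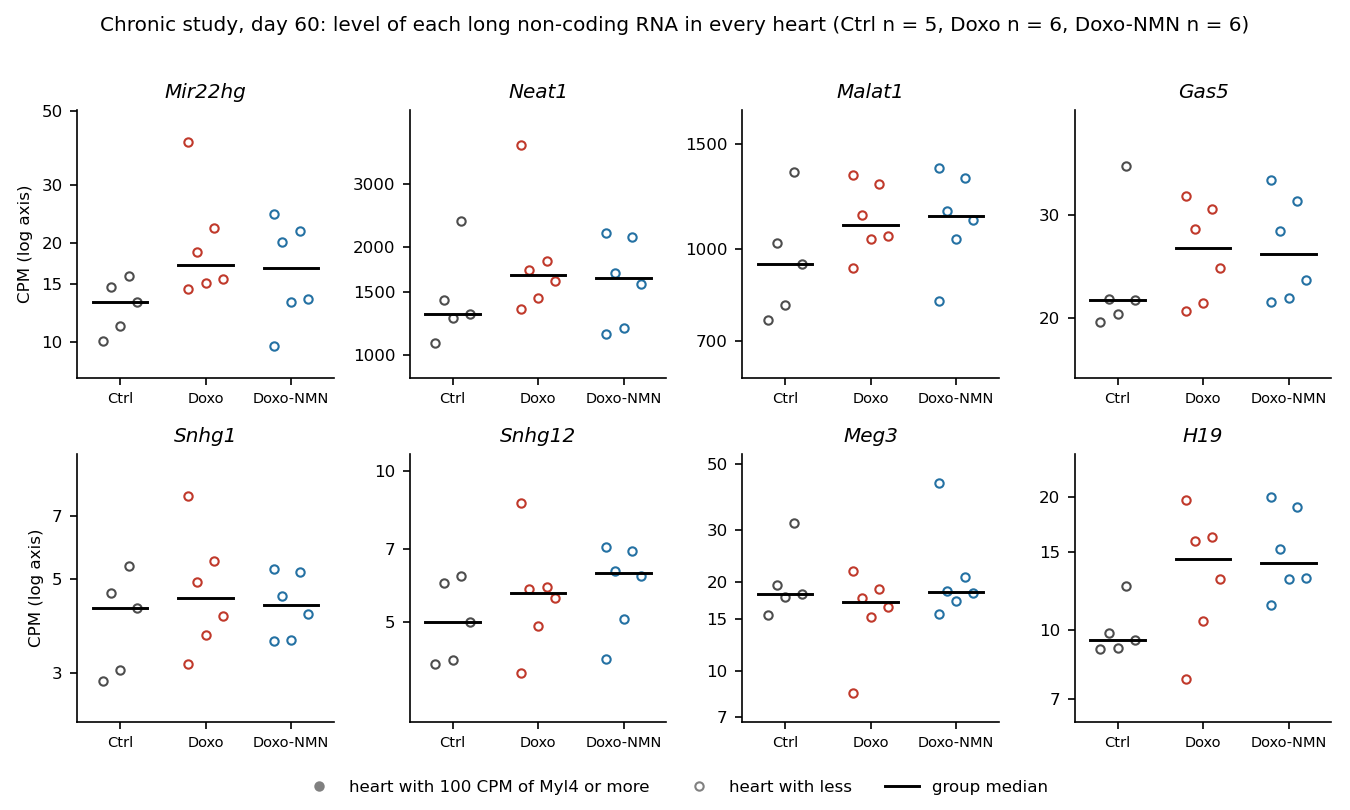
Level of each long non-coding RNA in every heart of the chronic study, in CPM on a log axis, for Ctrl, Doxo and Doxo-NMN. Points are hearts, all open since none reached 100 CPM of *Myl4*, and bars are group medians. Groups overlap in all panels, and 1 Doxo heart stands high in *Mir22hg* (40.3 CPM) and *Neat1* (3860 CPM).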

How the data were processed

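The authors isolated poly(A) RNA from hearts and sequenced it, aligned reads to mm10 with STAR (2.7.3a in the submitters' processing notes) and counted them per gene with featureCounts 2.0.0. The deposited values are raw counts per gene in 1 table per study. The annotation and strand setting are not given in the sources used here. In the acute table a median of 73.6% of counts from 1 to 20 were even, so counts were also tested after division by 2. With these totals, 3 counts amount to between 0.0576 and 0.0926 CPM (acute) or between 0.126 and 0.169 CPM (chronic), which covers counting error only.

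The RNAs and gene lists were chosen with earlier results of these data known. Each study was fitted on its own over all hearts with edgeR 4.0.16 (R 4.3.3): filterByExpr, TMM factors, glmQLFit and glmQLFTest, with Benjamini-Hochberg adjustment over all tested genes. A call needed an adjusted p under 0.05 and, in the acute study, a change of at least 1.5-fold. CPM are TMM-normalised. DESeq2 1.42.0 was an alternative. SEs are log2 fold changes divided by the root of F, and intervals are 1.96 SEs. The edgeR fit was tested on simulated data. Likeness was Pearson's r of log2(CPM + 1) over 40 acute hearts after subtraction of group means. Exon lengths are from GENCODE M21. From each gene list were named the 2 called genes with the largest increase and the 2 with the largest decrease in acute Doxo vs. Ctrl, for each RNA the 3 genes most like it, and its neighbours, except that some genes are not reported here. *Upf1*, *Mhrt*, *Col1a1* and *Dcn* were named after their values were seen. *Myl4* classes were set on the data. Hearts of a group were separate animals. No pair of hearts of a group agreed within sampling noise, the lowest chi-square per degree of freedom being 5.51.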

Additional observations from a re-analysis of the deposited data

Results flagged for a closer look

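In the chronic study, each RNA in each group of 5 or 6 hearts was examined for a heart far from the others. This gave 24 tests, and 7 found such a heart, where chance gives about 1 in 20 for a single test. The RNAs were read in the same hearts, so the tests are not independent and an excess over chance cannot be judged. Ctrl replicate 1 stood high in *Gas5* (36.4 CPM), *Meg3* (31.6 CPM) and *Neat1* (2377 CPM). Ctrl replicate 5 stood high in *H19* (12.6 CPM). Doxo replicate 2 stood high in *Mir22hg* (40.3 CPM) and *Neat1* (3860 CPM). Doxo-NMN replicate 4 stood high in *Meg3* (43.2 CPM).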

How the results depend on the processing

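With RLE factors, DESeq2, no filter on low counts, halved acute counts or the replicate number as a block, all 24 acute and 24 chronic log2 fold changes of the 8 RNAs (halving in the acute study only) kept their direction where called and their side of the threshold. Replicate numbers did not pair hearts: same-numbered hearts deviated together with correlations of −0.62 to 0.58 in the acute study (18 of 39 pairs over 0.1) and −0.25 to 0.41 in the chronic study, and with the replicate block the Mir22hg log2 fold change, acute Doxo vs. Ctrl, was 2.82, with 7, 4 and 2 RNAs called. In hearts of at least 100 CPM of *Myl4*, 1 RNA was called in Doxo-NMN vs. Ctrl in place of 2. *Mir22hg* gave 0.73 there, over 1.5-fold with an adjusted p over 0.05, in a fit of fewer hearts. With the atrial class as a term, chosen after seeing the data, *Meg3* gave −0.55 in Doxo vs. Ctrl, no longer 1.5-fold, and 0.62 in Doxo-NMN vs. Doxo. Without the 1.5-fold limit, 7, 6 and 3 RNAs were called. Leaving out 1 heart gave 6 to 7, 4 to 6 and 2 calls in the acute study, the 6 in Doxo-NMN vs. Doxo being reached without Doxo replicate 6, and 0 in the chronic study. Of the gene lists in chronic Doxo vs. Ctrl, DESeq2 called 1 gene and edgeR none. The cause was not tested.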
